A study of Mus musculus with 14 samples.

Results

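Excitatory neurons of the cerebral cortex differ by depth, and 35 genes that mark this difference were followed across upper and deep cortical layers, each as sorted astrocytes, the remaining sorted cells and bulk tissue. The genes were taken by symbol, or for Rasgrf2 by identifier, from a table of 32830 genes. A set of 12 marks upper layer neurons (Cux1, Cux2, Lamp5, Rasgrf2, Nectin3, Stard8, Mdga1, Calb1, Bhlhe22, Lmo4, Inhba and Mef2c). Another 23 mark deep layer neurons (Fezf2, Bcl11b, Tbr1, Foxp1, Foxp2, Tle4, Crym, Pcp4, Nr4a2, Sox5, Etv1, Ntsr1, Cplx3, Ctgf, Nxph4, Tshz2, Hs3st4, Ldb2, Rprm, Rxfp1, Lmo3, Zfpm2 and Otx1). All 35 were in the table and all 35 passed the filter on low values, which kept 22575 genes.

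Upper layer neurons project mainly within the cortex, and deep layer neurons project largely to the thalamus, brainstem and spinal cord. Their identities are set by transcription factors, several of which repress one another: Fezf2 and Bcl11b promote the fate of neurons that project below the cortex, Tbr1 and Sox5 act in those that project to the thalamus, and Cux1 and Cux2 act in upper layer neurons. Most of these genes are not restricted to excitatory neurons, and several are also used by glia, vascular cells or interneurons.

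The animals were mice of the SW strain at postnatal day 14 that carried the Aldh1l1-GFP transgene, in which the regulatory sequence of Aldh1l1, a folate enzyme gene of astrocytes, drives green fluorescent protein. All 6 groups came from hand-dissected cortex of this kind: upper layer and deep layer astrocytes (GFP-positive sorted cells, n = 3 each), upper layer and deep layer non-astrocytes (GFP-negative sorted cells, n = 2 each), and upper layer and deep layer bulk tissue (whole layers, n = 2 each). The sorted cells had been freed with papain and gated as DAPI-negative, so what they hold depends on which cells survived this step and on where the GFP gate was set. One field of the labels names bulk tissue for the upper layer astrocytes and non-astrocytes as well, against their titles, and the titles were followed. Whether the libraries of a group are from different animals is not in the labels. The p-values speak to the spread among these libraries alone, which may be technical in the sorted fractions. The main fit estimates the spread of a gene over all 6 groups, so p-values for bulk tissue also rest on the sorted libraries.

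Between 18226457 and 30316765 reads fell in genes in the 14 libraries. The level of a gene is its normalised read count, the reads of the gene divided by a size factor for its library. Markers of each cell class were summed per library to check the fractions against their names. The sum of 12 astrocyte markers ran from 1044649 to 1530192 in the astrocytes, 207392 to 245876 in bulk tissue and 27540 to 35258 in the non-astrocytes. The sum of 9 excitatory neuron genes (among them Slc17a7, Neurod2 and Camk2a) ran from 113709 to 217239 in bulk tissue, 1891 to 5824 in the non-astrocytes and 409.9 to 1395 in the astrocytes, and Slc17a6 was at 0 in each astrocyte library. The non-astrocyte mean of that sum was 2.45% of the bulk mean, while 10 microglia markers stood at 181779 to 262637 in the non-astrocytes against 8802 to 10034 in bulk tissue, and 9 mural cell markers at 221324 to 291026 against 8552 to 10797. The non-astrocyte libraries were therefore poor in excitatory neuron transcripts and rich in those of microglia and vessel walls. Deep layer astrocyte replicate 2 held the highest value of the 6 astrocyte libraries for 13 of the 35 genes and the lowest for 7. Eif2s3y, a Y-linked gene, read 6.5 and 12.9 in bulk tissue replicate 1 and 658.1 and 615.3 in replicate 2 (upper and deep layers), a difference that follows the replicate number and not the layer, so the bulk libraries of a layer do not come from the same animals.

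**Figure D1:**
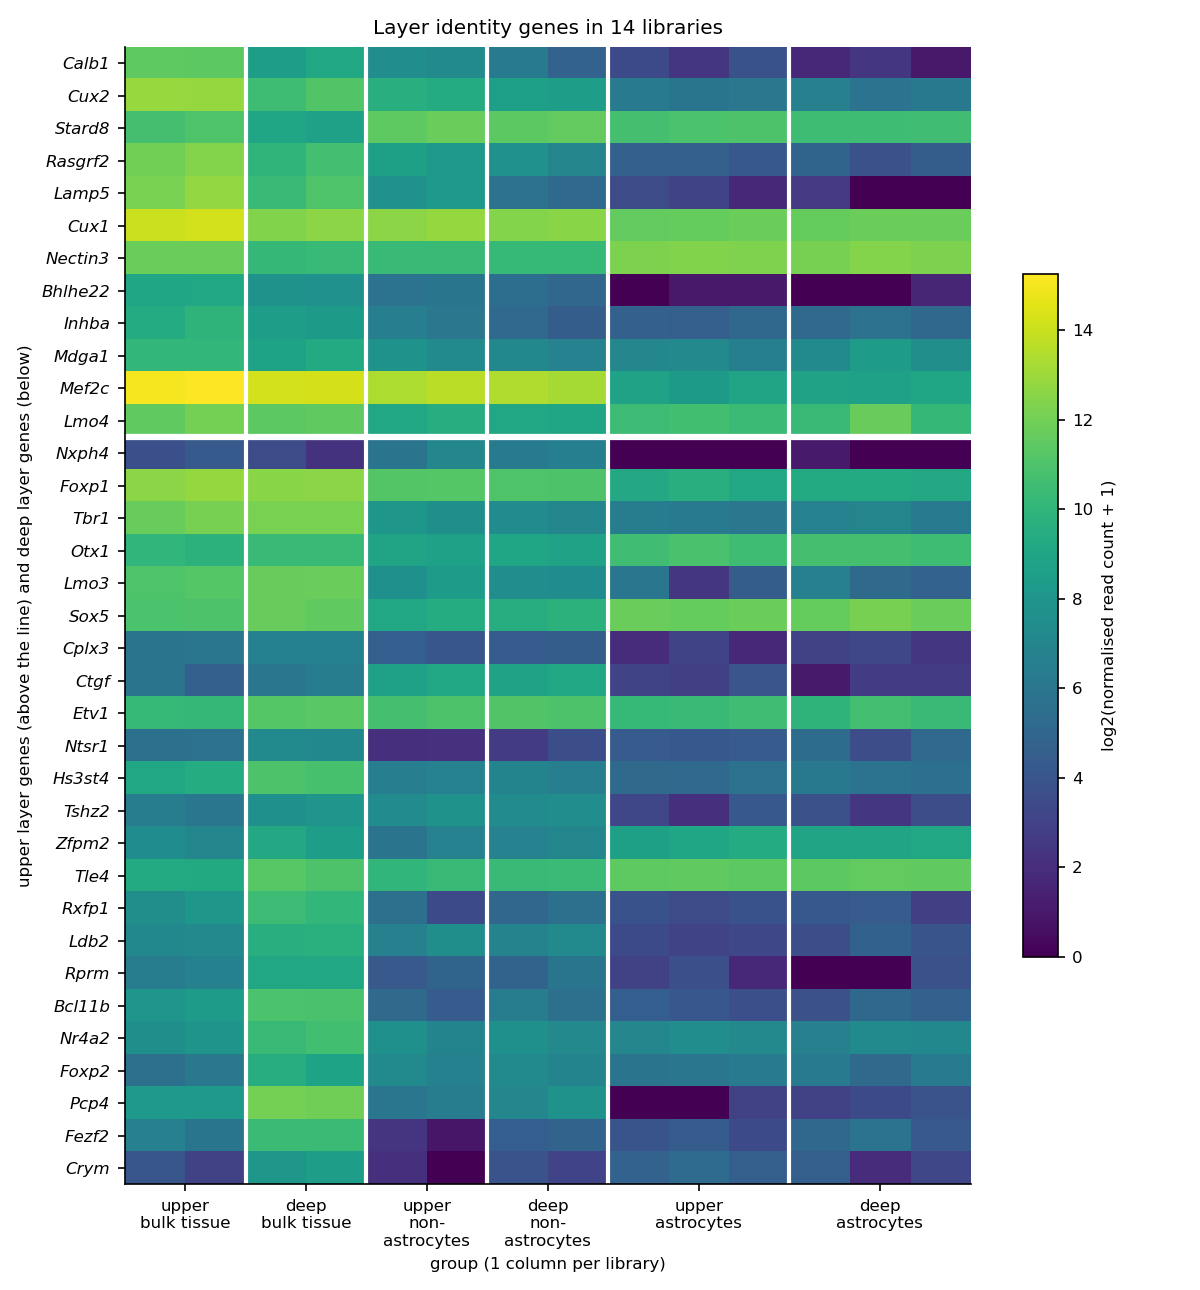
Normalised read counts of the 35 genes, as log2(value + 1) in color, with 1 column for each of the 14 libraries and 1 row for each gene, upper layer genes above the horizontal line and deep layer genes below it, each ordered by the layer difference in bulk tissue. Nectin3, Tle4, Sox5, Otx1 and Zfpm2 are brighter in the astrocyte columns than in the non-astrocyte columns, and Ctgf and Nxph4 are brightest in the non-astrocyte columns.

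Upper layer genes were compared first between the upper and deep layers of bulk tissue (n = 2 and 2), which hold the neurons that carry them. Of the 12 upper layer genes, 5 rose in the upper layers (limma, adjusted p below 0.05), against 0.159% of all genes tested that were called higher and 0.297% called lower. All 12 had a log2 difference above 0, with a median of 1.64 against 0.00261 over all genes. In 11 of the 12 both upper layer libraries lay above both deep layer libraries, which held for 22.4% of all genes. In bulk tissue, fewer cells of a type and less RNA per cell cannot be told apart.

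Cux2, a homeobox transcription factor gene (chromosome 5, 121856366 to 122050102, GRCm38), read 7595 and 7365 in the upper layer libraries and 1451 and 2174 in the deep layer libraries. The groups lay far apart, a 4.21-fold difference (log2 2.07, SE 0.264, adjusted p = 0.00201). Its paralogue Cux1 read 16939 and 19052 against 5194 and 6120 (log2 1.67, adjusted p = 0.000253). Exons of Cux1 overlap those of Gm16599 on the other strand, and the sources used here do not say whether reads were counted by strand. The other 3 genes that rose act at the membrane or on small GTPases. Nectin3, a cell adhesion gene (chromosome 16, 46387706 to 46498525), read 3672 and 3649 in the upper layers and 1143 and 1248 in the deep layers (log2 1.61, SE 0.152, adjusted p = 0.00019). Stard8, a lipid-binding GTPase activator gene of the X chromosome (99003248 to 99074728), read 1734 and 2131 against 511.1 and 420.4 (log2 2.05, SE 0.182, adjusted p = 0.000137). Rasgrf2, an exchange factor gene for Ras (chromosome 13, 91880400 to 92131656), read 4109 and 5420 against 989.2 and 1619 (log2 1.90, adjusted p = 0.0477). None of the 5 overlapped between layers, and each was at least 3.06-fold higher on this scale.

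The other 7 upper layer genes did not pass the test. Calb1, the calcium-binding protein calbindin, had the largest difference of the 12 and read 2845 and 2711 in the upper layers and 376 and 542.3 in the deep layers (log2 2.62, 95% interval 1.45 to 3.78, adjusted p = 0.0513). Lamp5, a membrane protein gene that some interneurons carry as well, read 4706 and 7002 against 1221 and 2080 (log2 1.85, interval 0.27 to 3.43). Mef2c, a transcription factor gene, read 34002 and 38861 against 18894 and 19789 (log2 0.91, adjusted p = 0.0743). Mef2c was called with the replicate number as a block (adjusted p = 0.0311). Inhba, which encodes an activin subunit, read 676.4 and 982.6 against 366.6 and 320.6 (log2 1.25). Mdga1 (log2 1.04), a membrane glycoprotein gene, and Bhlhe22 (log2 1.29), a transcription factor gene, were also apart between layers. Lmo4, a LIM-only cofactor gene, was the 1 gene that overlapped, at 2947 and 4292 against 2701 and 2986 (log2 0.32, interval -0.48 to 1.13).

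Of the genes called, 4 also had a layer difference in bulk tissue that differed from that in both sorted fractions and have a RefSeq promoter window without an annotated exon, so the 250 bases before their RefSeq start (GRCm38.p6) are shown, on the gene's strand and 5′ to 3′. They are Nectin3 (chr16:46496968-46497217, minus strand) and Stard8 (chrX:99042331-99042580, plus strand) of the upper layer genes and Tle4 (chr19:14598184-14598433, minus strand) and Nr4a2 (chr2:57124004-57124253, minus strand) of the deep layer genes. The RefSeq starts of Nectin3 and Stard8 lie 1558 and 39333 bases inside the gene as GENCODE draws it.
Nectin3: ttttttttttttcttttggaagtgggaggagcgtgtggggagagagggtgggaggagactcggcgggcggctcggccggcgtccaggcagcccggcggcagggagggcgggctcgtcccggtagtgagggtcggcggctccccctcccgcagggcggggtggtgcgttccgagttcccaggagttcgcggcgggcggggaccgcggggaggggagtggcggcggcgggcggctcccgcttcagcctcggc
Stard8: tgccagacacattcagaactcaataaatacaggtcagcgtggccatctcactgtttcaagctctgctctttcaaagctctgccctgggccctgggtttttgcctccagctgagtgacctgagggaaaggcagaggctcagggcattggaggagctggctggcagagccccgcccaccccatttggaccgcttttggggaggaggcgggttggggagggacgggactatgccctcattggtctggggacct
Tle4: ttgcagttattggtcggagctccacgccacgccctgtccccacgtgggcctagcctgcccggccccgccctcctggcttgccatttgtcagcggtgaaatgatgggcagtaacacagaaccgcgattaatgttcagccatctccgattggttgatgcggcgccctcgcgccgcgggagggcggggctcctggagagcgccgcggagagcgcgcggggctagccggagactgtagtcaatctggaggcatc
Nr4a2: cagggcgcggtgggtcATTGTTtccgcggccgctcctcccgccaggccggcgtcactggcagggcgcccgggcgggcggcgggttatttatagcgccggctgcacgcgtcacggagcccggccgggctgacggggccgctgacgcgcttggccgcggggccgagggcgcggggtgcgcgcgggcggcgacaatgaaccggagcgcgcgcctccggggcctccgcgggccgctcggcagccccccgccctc
The capitals in Nr4a2 mark the SOX motif AACAAT on the reverse strand, 234 bases before the start. The windows of Nectin3 (73.2% G and C, 30 CpG), Tle4 (65.2%, 24 CpG) and Nr4a2 (80%, 44 CpG) were richer in both than the medians over 32851 windows, 52.4% and 6 CpG, while that of Stard8 held 58.8% and 5 CpG.

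RefSeq windows of 250 bases before to 50 bases after a start were found for 25 of the 35 genes, 10 upper layer and 15 deep layer genes. Only the 250 bases before each start, in these and in all windows, were searched on both strands for short motifs of the factors among the genes. Some genes had more than 1 window, 16 in all for the upper layer and 19 for the deep layer genes. AACAAT (SOX) was in 5 of the 19 deep layer windows (26.3%, of Etv1, Foxp1, Nr4a2, Tbr1 and Tle4). It was in 0 of the 16 upper layer windows and in 9.42% of all windows. The Tle4 window with this motif is not the one shown above, which held 0 matches. ATCGAT (CUX) was in a window of Cux2 itself (0.728% of all windows), GGTGTGA (T-box) in one of Lmo3 (3.33%), TGTTTAC (FOXP) in one of Cux1 (3.17%), CATATG (BHLHE22) in one of Mef2c (3.46%) and GGATTA (OTX) in those of Lamp5 and Mdga1 (6.25%). The SOX motif shares the letters AACA with the FOXP motif read on its reverse strand. A match describes the letters only.

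Deep layer genes moved the other way in the same comparison. Of the 23, 11 fell in the upper layers and 0 rose, against 0.297% and 0.159% of all genes tested. The log2 difference was below 0 for 21, and in those 21 both upper layer libraries lay below both deep layer libraries, which held for 21.3% of all genes. Their median was -1.61. The differences reached log2 -4.73, against at most 2.62 among the upper layer genes.

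Of the 11 genes that fell, 8 encode transcription factors or cofactors. Fezf2, a zinc finger gene (chromosome 14, 12342094 to 12348189), read 97.7 and 60.1 in the upper layers and 1348 and 1327 in the deep layers, 17.2-fold lower (log2 -4.11, SE 0.549, adjusted p = 0.00278). Bcl11b, which acts downstream of Fezf2 (chromosome 12, 107910403 to 108003602), read 259 and 341.6 against 1929 and 1838 (log2 -2.66, adjusted p = 0.0173). Foxp2, a forkhead gene (chromosome 6, 14901349 to 15441977), read 48.8 and 67.1 against 727.2 and 449.9 (log2 -3.30, adjusted p = 0.00079). In these 3 both upper layer libraries were several-fold under both deep layer libraries. Nr4a2, an orphan nuclear receptor gene (chromosome 2, 57106830 to 57124003), read 188.9 and 240.4 against 1256 and 1598 (log2 -2.73, adjusted p = 0.000671). Tle4, a corepressor gene of the Groucho family (chromosome 19, 14448150 to 14598051), read 627.6 and 606 against 2452 and 2006 (log2 -1.84, SE 0.165, adjusted p = 0.000137). Etv1, an ETS factor gene, had the smallest fall among those called, from 2388 and 2613 to 1192 and 1156 (log2 -1.09, adjusted p = 0.0497). Zfpm2, a cofactor gene of GATA proteins, read 172.3 and 126.2 against 599.2 and 370.5 (log2 -1.67), and Ldb2, a LIM domain binding gene, 135.5 and 143.2 against 789.5 and 805.6 (log2 -2.51).

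The remaining 3 genes that fell encode other proteins. Crym, a thyroid hormone binding protein (chromosome 7, 120186380 to 120202111), read 15.7 and 7.0 in the upper layers and 264.3 and 354.8 in the deep layers, the largest fall (log2 -4.73, SE 0.797, adjusted p = 0.0173). Pcp4, a calmodulin regulator (chromosome 16, 96467606 to 96525793), read 297.7 and 307.5 against 4192 and 3919 (log2 -3.74, adjusted p = 0.0319), with exons that overlap Igsf5. Hs3st4, a heparan sulfate sulfotransferase, read 560.3 and 703.2 against 1998 and 1796 (log2 -1.59), with exons that overlap Gm27040. In each of them both upper layer libraries were well under both deep layer libraries.

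Among the 12 deep layer genes that did not pass, 10 had values below 0. Rxfp1, a relaxin receptor gene (log2 -2.48, interval -3.78 to -1.18), Rprm, which encodes reprimo (log2 -2.54), the zinc finger gene Tshz2 (log2 -1.61), the neurotensin receptor gene Ntsr1 (log2 -1.52), the complexin gene Cplx3 (log2 -0.75), Sox5 (log2 -0.66), Lmo3 (log2 -0.62) and Otx1 (log2 -0.39) were apart in the deep layer direction, as was Ctgf, a secreted matrix protein gene. Tbr1, a T-box factor gene, had the smallest difference of the 10, at 3361 and 4382 against 4589 and 4576 (log2 -0.26, interval -0.82 to 0.31). The other two lay on the upper layer side. Foxp1, a forkhead gene, read 6166 and 7207 in the upper layers and 5871 and 6077 in the deep layers (log2 0.16, interval -0.20 to 0.52). Nxph4, a neurexophilin gene, was low throughout, at 12 and 19 against 10.6 and 3.7 (log2 1.13, interval -0.27 to 2.53). Neither difference passed the test.

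With 2 libraries a group, any 1 library weighed on these calls. Leaving out any of the 4 bulk libraries, which leaves 1 library on that side and assumes that it varies like the other groups, left 3 to 4 upper layer genes and 3 to 4 deep layer genes called. Cux1, Nectin3, Stard8, Foxp2, Nr4a2 and Tle4 were called in each of these 4 fits. Cux2 was lost without deep layer replicate 1 or upper layer replicate 2, Fezf2 without any but upper layer replicate 1, and Bcl11b, Crym, Etv1, Hs3st4, Ldb2, Pcp4, Rasgrf2 and Zfpm2 without any one of the 4. Cell classes moved with the layers as well: the sum of 10 oligodendrocyte markers was 39650 to 43333 in upper layer and 131609 to 155217 in deep layer bulk tissue, and 5 of the 10 fell. The sum of the 9 excitatory neuron genes was 181478 to 217239 in the upper and 113709 to 129674 in the deep layers. Camk2a, the highest of the 9, read 130725 and 169499 against 70999 and 80814 and so weighs most in this sum. By gene the list was split, with 6 log2 differences above and 3 below 0, and Slc17a7 read 13554 and 15303 against 17035 and 19151. All 10 endothelial markers and 7 of 8 oligodendrocyte precursor markers were apart in the deep layer direction (medians -0.29 and -0.57), with 0 called by limma and 1 of each list at an unadjusted p below 0.05. Over all 22575 genes tested, 1639 were at an unadjusted p below 0.05. The sum of 12 general neuron markers was 175098 to 227933 in the upper and 213046 to 219801 in the deep layers, with 0 of the 12 called by limma and 0 at an unadjusted p below 0.05. The part of these classes in the layer differences was not tested.

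**Figure D2:**
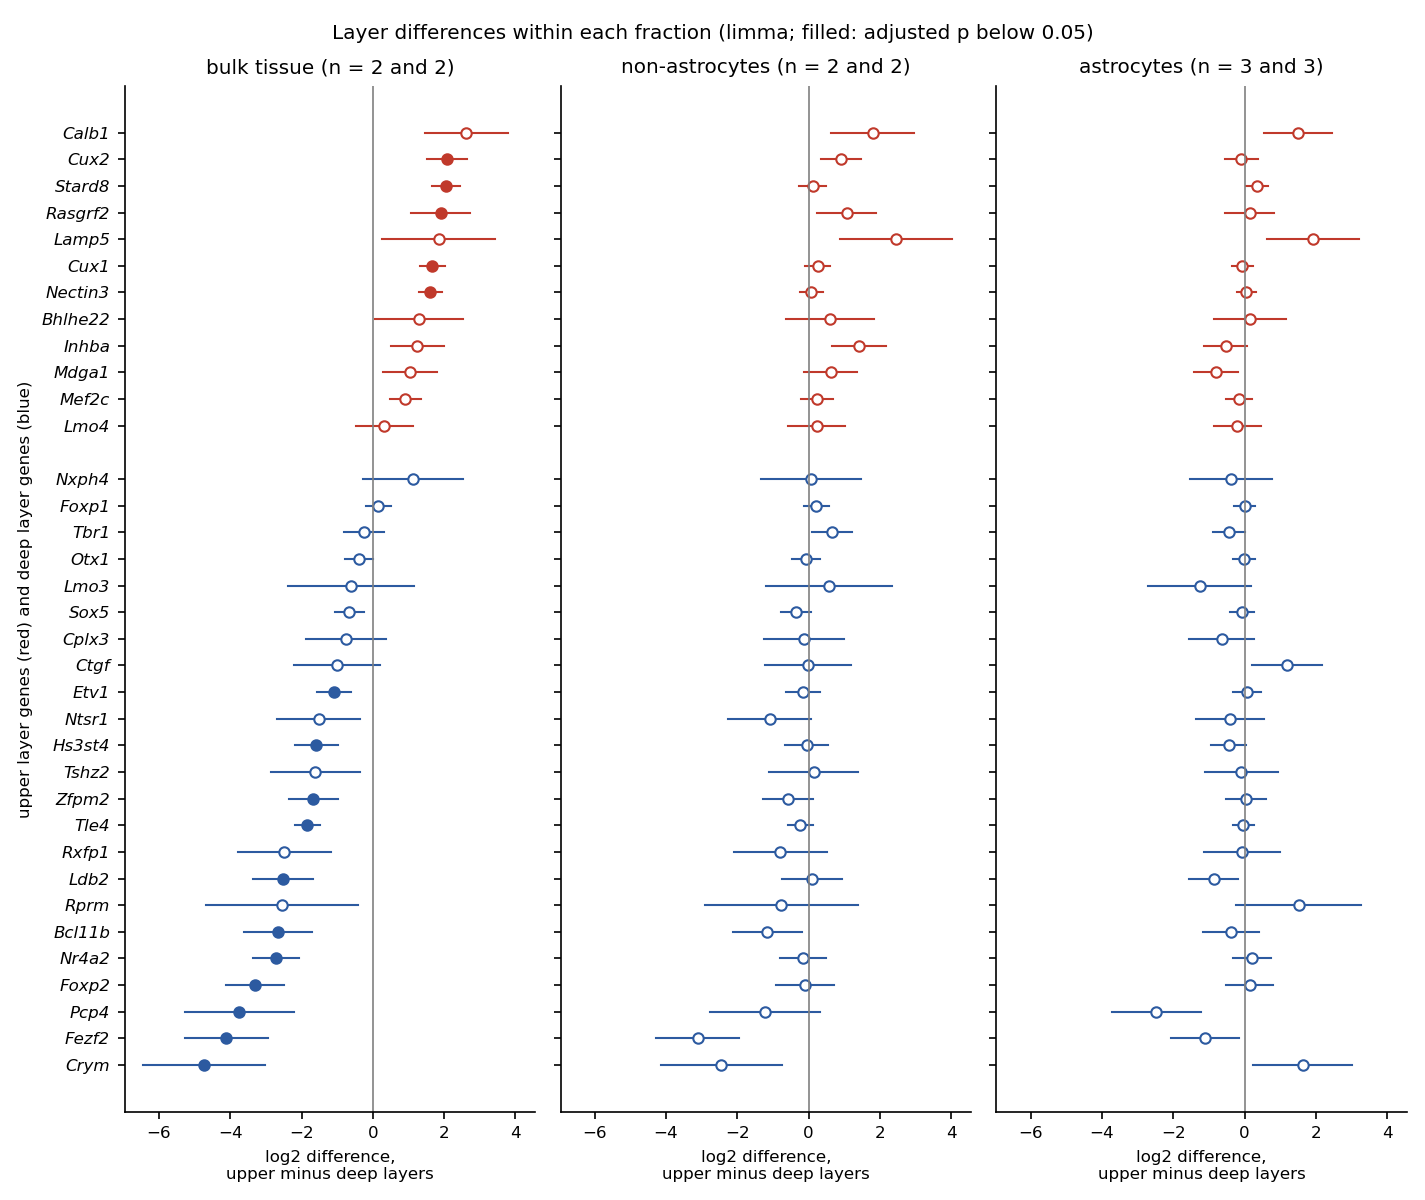
Log2 difference of upper minus deep layers for each gene, in bulk tissue (left), non-astrocytes (middle) and astrocytes (right), with 95% intervals from limma, upper layer genes in red and deep layer genes in blue, and filled points where the adjusted p is below 0.05. In bulk tissue 5 red points right of 0 and 11 blue points left of 0 are filled, and no point is filled in the sorted fractions.

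In the non-astrocytes (n = 2 and 2) the same comparison called 0 of the 35 genes with limma, against 0.00443% of all genes (1 gene, Reln, an interneuron marker, higher in the upper layers at log2 2.06, adjusted p = 0.00248). At an unadjusted p below 0.05 there were 5 upper layer and 4 deep layer genes, and 871 of the 22575 genes tested. The edgeR fit called 1 gene (Lamp5), and 7 higher and 0 lower over all genes. DESeq2 called 6 (Calb1, Cux2, Fezf2, Inhba, Lamp5 and Pcp4), and 101 higher and 37 lower over all genes. The upper layer genes were all above 0, with a median of 0.61 against -0.03 over all genes, and 9 were apart between layers in the upper layer direction, against 11.8% of all genes. Of the deep layer genes 17 were below 0, with a median of -0.15. Their libraries were apart in the deep layer direction for 8, against 13.7% of all genes, and in the upper layer direction for 3 (Foxp1, Lmo3 and Tbr1).

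Fezf2 read 3.8 and 0.9 in the upper layer non-astrocytes and 22.7 and 28.2 in those of the deep layers (log2 -3.12, interval -4.29 to -1.94, adjusted p = 0.137). It was called with the replicate number as a block (adjusted p = 0.0338). Cux2 read 746.3 and 673.1 against 388.4 and 372.8 (log2 0.90, interval 0.33 to 1.46, adjusted p = 0.565). Lamp5 read 206.5 and 277.3 against 51.8 and 35.5 (log2 2.45, interval 0.88 to 4.03). These genes were apart between layers, at levels far under those of bulk tissue. Calb1, at 178.9 and 147.2 against 76.9 and 27.3, and Inhba, at 89.8 and 63.7 against 35.6 and 21.8, were apart too. Tbr1 lay the other way, at 269.5 and 190.3 in the upper layers and 165.1 and 126.4 in the deep layers (log2 0.64, interval 0.08 to 1.21). The general neuron marker sum moved with the layer in this fraction, 13228 to 13615 in the upper and 9775 to 11253 in the deep layers, and so did the excitatory neuron sum, 5011 to 5824 against 1891 to 2993, and the oligodendrocyte sum, 55387 to 63435 against 117880 to 159088. Their part in these differences was not tested.

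In the astrocytes (n = 3 and 3) limma called 0 of the 35 genes between layers, against 0.0797% of all genes, and edgeR and DESeq2 also called 0. At an unadjusted p below 0.05 there were 4 upper layer and 5 deep layer genes, and 2334 of the 22575 genes tested. The upper layer genes were split, 6 above and 6 below 0, with a median of -0.01, and the deep layer genes had 15 below 0 and a median of -0.08. The libraries were apart for 3 upper layer genes (Calb1 and Stard8 higher, Mdga1 lower in the upper layers) and 3 deep layer genes (Ctgf higher, Ldb2 and Pcp4 lower), against 8.7% of all genes apart in the higher and 7.31% in the lower direction. Pcp4 read 0, 0 and 6.6 in the upper layer astrocytes and 7.1, 9.9 and 13.7 in those of the deep layers (log2 -2.47, interval -3.73 to -1.22, adjusted p = 0.175), which is a handful of reads in each library. It was called with the replicate number as a block (adjusted p = 0.0331) and without upper layer replicate 3, and Lamp5 was called without deep layer replicate 1. Lamp5 read 10.5, 7.6 and 2.2 in the upper and 4.7, 0 and 0 in the deep layers, so the groups overlapped. Fezf2 read 14.3, 20.7 and 9.9 against 33.1, 55.3 and 18 (log2 -1.11), also with overlap. Crym went against its list at 26.7, 39.2 and 23.1 in the upper and 23.6, 2.8 and 8.5 in the deep layers (log2 1.64, interval 0.25 to 3.03), and overlapped. Mdga1 read 130.8, 146.1 and 93.7 against 149.9, 350.4 and 182.9, the highest being deep layer replicate 2. Without that library its difference was -0.44 in place of -0.80.

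The layer differences of bulk tissue were then tested against those of each sorted fraction, to see which genes differed between layers more in the tissue than in the sorted cells. Both tests share the bulk libraries. Against the non-astrocytes, 3 upper layer genes had a higher difference in bulk tissue, against 0.0177% of all genes, and 3 deep layer genes had a lower one, against 0.0399%. Against the astrocytes, 4 upper layer genes were higher (0.0576% of all genes) and 4 deep layer genes were lower (0.0797%).

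Stard8, called in both tests (difference of the differences 1.94 and 1.70), differed between layers by log2 2.05 in bulk tissue, 0.11 (interval -0.28 to 0.50) in the non-astrocytes and 0.35 (interval 0.03 to 0.66) in the astrocytes. Its non-astrocyte libraries read 2769 and 3513 in the upper and 2696 and 3090 in the deep layers, which overlap and lie above every bulk library. In the astrocytes it read 1717, 1977 and 2016 against 1454, 1488 and 1532. Nectin3 was also called in both, with 1225 and 1259 against 1187 and 1181 in the non-astrocytes (log2 0.07, interval -0.26 to 0.39), and 4907, 5239 and 5037 against 4525, 5498 and 4749 in the astrocytes (log2 0.04). The astrocyte level of Nectin3 was thus above that of upper layer bulk tissue in both layers. Cux1, the remaining upper layer gene called in both, read 6212 and 7193 against 5419 and 5834 in the non-astrocytes and 3028 to 3644 against 3214 to 3564 in the astrocytes. Cux2 was called against the astrocytes, where it read 81.2, 60 and 63.9 in the upper and 96.8, 55.3 and 70.8 in the deep layers, and not against the non-astrocytes (difference 1.18, adjusted p = 0.858).

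Foxp2, Nr4a2 and Tle4 were the deep layer genes called in both tests. In the non-astrocytes Foxp2 read 153.6 and 105 in the upper and 157.8 and 117.3 in the deep layers (log2 -0.10, interval -0.91 to 0.71), and in the astrocytes 57.3, 63.2 and 80.5 against 74.4, 38.3 and 75.1. Nr4a2 read 196.5 and 115.8 against 197.5 and 146.4 in the non-astrocytes and 132.7, 173.3 and 142.2 against 100.3, 154.6 and 135.3 in the astrocytes. Both genes overlapped between layers in each sorted fraction. Tle4 read 1038 and 1229 against 1295 and 1355 in the non-astrocytes and 2782, 2986 and 2716 against 2673, 3111 and 2884 in the astrocytes (log2 -0.03, interval -0.32 to 0.26). Its astrocyte libraries lay above all bulk libraries, including those of the deep layers. Crym was the fourth deep layer gene called against the astrocytes. These calls rested on single libraries. Against the non-astrocytes, Nectin3, Stard8 and Nr4a2 were still called without upper layer non-astrocyte replicate 2, and 0 of the 6 genes without any other of the 8 bulk and non-astrocyte libraries. Against the astrocytes 0 of the 8 were called without deep layer bulk replicate 1 or either upper layer bulk library. Leaving out deep layer bulk replicate 2 lost Crym, Nr4a2 and Stard8, and leaving out upper layer astrocyte replicate 2 or 3 lost Crym and Cux2. With the replicate number as a block, Foxp2 was lost against the non-astrocytes (adjusted p = 0.0689), and Mdga1 (adjusted p = 0.0489) and Zfpm2 (adjusted p = 0.0408) were added against the astrocytes.

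**Figure D3:**
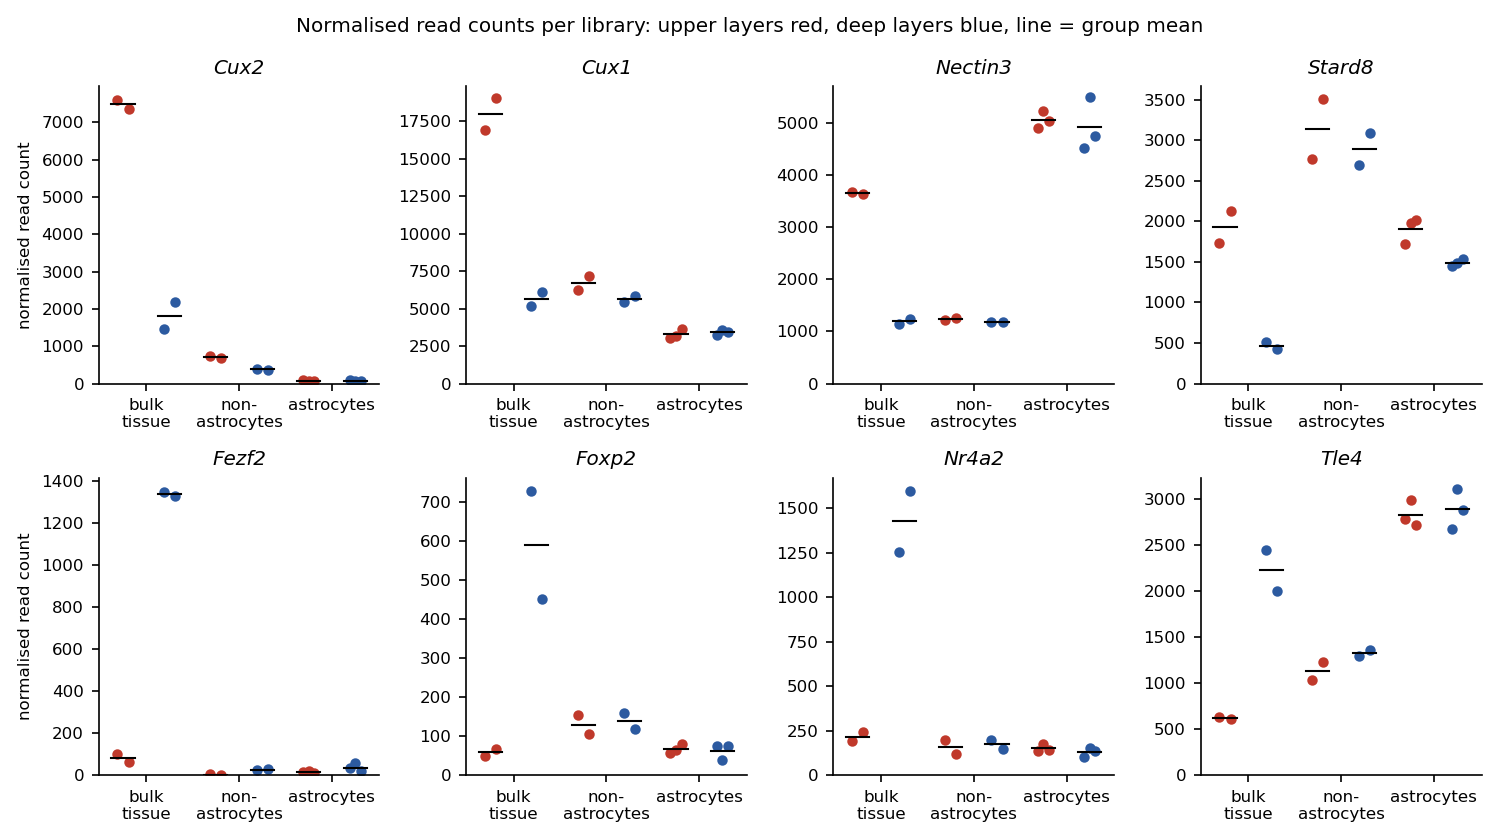
Normalised read counts of 4 upper layer genes (top row) and 4 deep layer genes (bottom row) in each library, by fraction on the x axis, upper layers in red and deep layers in blue, with the group mean as a line and a linear axis from 0 for each gene. The red and blue points part in bulk tissue for all 8 genes, and the astrocyte points of Nectin3 and Tle4 lie above all of their bulk tissue points.

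The fractions were compared over both layers, first the non-astrocytes against bulk tissue (n = 4 and 4 libraries). Same-numbered upper and deep layer libraries of a fraction were taken to be paired. The fraction tests here and below count them as independent, so their p-values may be too small. The replicate block of these tests shares its numbers over the fractions and does not correct for this. Of the 12 upper layer genes 11 fell and 1 rose, and of the 23 deep layer genes 17 fell and 2 rose, where 31.1% of all genes fell and 30.5% rose. The medians were -2.63 and -1.82 on the log2 scale against -0.04 over all genes. As a share of the bulk mean, upper layer genes kept 3.81% to 252% (median 15.5%) and deep layer genes 1.96% to 863% (median 24.7%). The 9 excitatory neuron genes and 12 general neuron markers all fell, with a median of -4.37 in both lists, a larger fall than the median of either list of layer genes.

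The lowest shares among the upper layer genes were those of Lamp5 (3.81%), Calb1 (6.65%), Rasgrf2 (8.34%) and Inhba (8.99%). Among the deep layer genes they were those of Fezf2 (1.96%), Crym (3.76%), Bcl11b (4.35%) and Tbr1 (4.44%). Rasgrf2 read 396.9, 283.6, 212 and 120 in the non-astrocytes (upper layers first), each under the lowest bulk library at 989.2. Bcl11b read 37.6, 20.6, 83.4 and 48.2, under the lowest bulk library at 259. Crym, at 3.1, 0, 13.8 and 7.3, overlapped bulk tissue, whose upper layer libraries read 15.7 and 7.0. In the same libraries the general neuron markers stood at 5.73% and the excitatory neuron genes at 2.45% of bulk.

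The highest shares went to genes that rose or were not called. Ctgf, a secreted matrix protein gene with exons that overlap Gm15270 on the other strand, read 428.4 and 568.1 in the upper and 444.3 and 555.6 in the deep layer non-astrocytes against 24.0 to 87.8 in bulk tissue (log2 3.21, adjusted p = 5.06e-06). Nxph4 read 58.3, 134.6, 76.1 and 94.6 against 3.7 to 19 (log2 3.01, adjusted p = 4.35e-05). Stard8 stood at 252% of bulk (log2 1.67, adjusted p = 2.55e-08). In these 3 genes every non-astrocyte library was above every bulk library, which held for 29% of all genes, and the layers overlapped within the non-astrocytes. Tshz2 (122%, log2 0.49, not called), with exons that overlap Gm26883 and A630075F10Rik, read 159.7, 225.3, 164.3 and 180.1 against 62.1 to 246.7 in bulk tissue. Etv1 (109%), Tle4 (86.4%) and Foxp2 (41.3%) were likewise not called. Etv1 read 1738, 2064, 2204 and 2003 in the non-astrocytes (upper layers first). In the upper layers the means of Etv1, Tle4 and Foxp2 were above bulk tissue (1901 against 1174, 1133 against 616.8, 129.3 against 57.98). In the deep layers they were below it (2104 against 2501, 1325 against 2229, 137.6 against 588.6). Of the upper layer genes, Cux1 (52.1%), Nectin3 (50%) and Mef2c (39.4%) kept the most after Stard8, and each still fell over both layers. In the deep layers the Cux1 mean was 5627 in the non-astrocytes and 5657 in bulk tissue, and the Nectin3 mean 1184 and 1196. The falls of Cux1 and Nectin3 thus lay in the upper layers, at 6702 against 18000 and 1242 against 3660. Mef2c, which microglia also express, read 10606, 13193, 10973 and 9215 in the non-astrocytes. Microglia markers stood at 2377% of bulk in this fraction, mural markers at 2746%, endothelial markers at 839%, meningeal fibroblast markers at 993% and oligodendrocyte precursor markers at 663%. Their part in the levels of these genes was not tested.

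**Figure D4:**
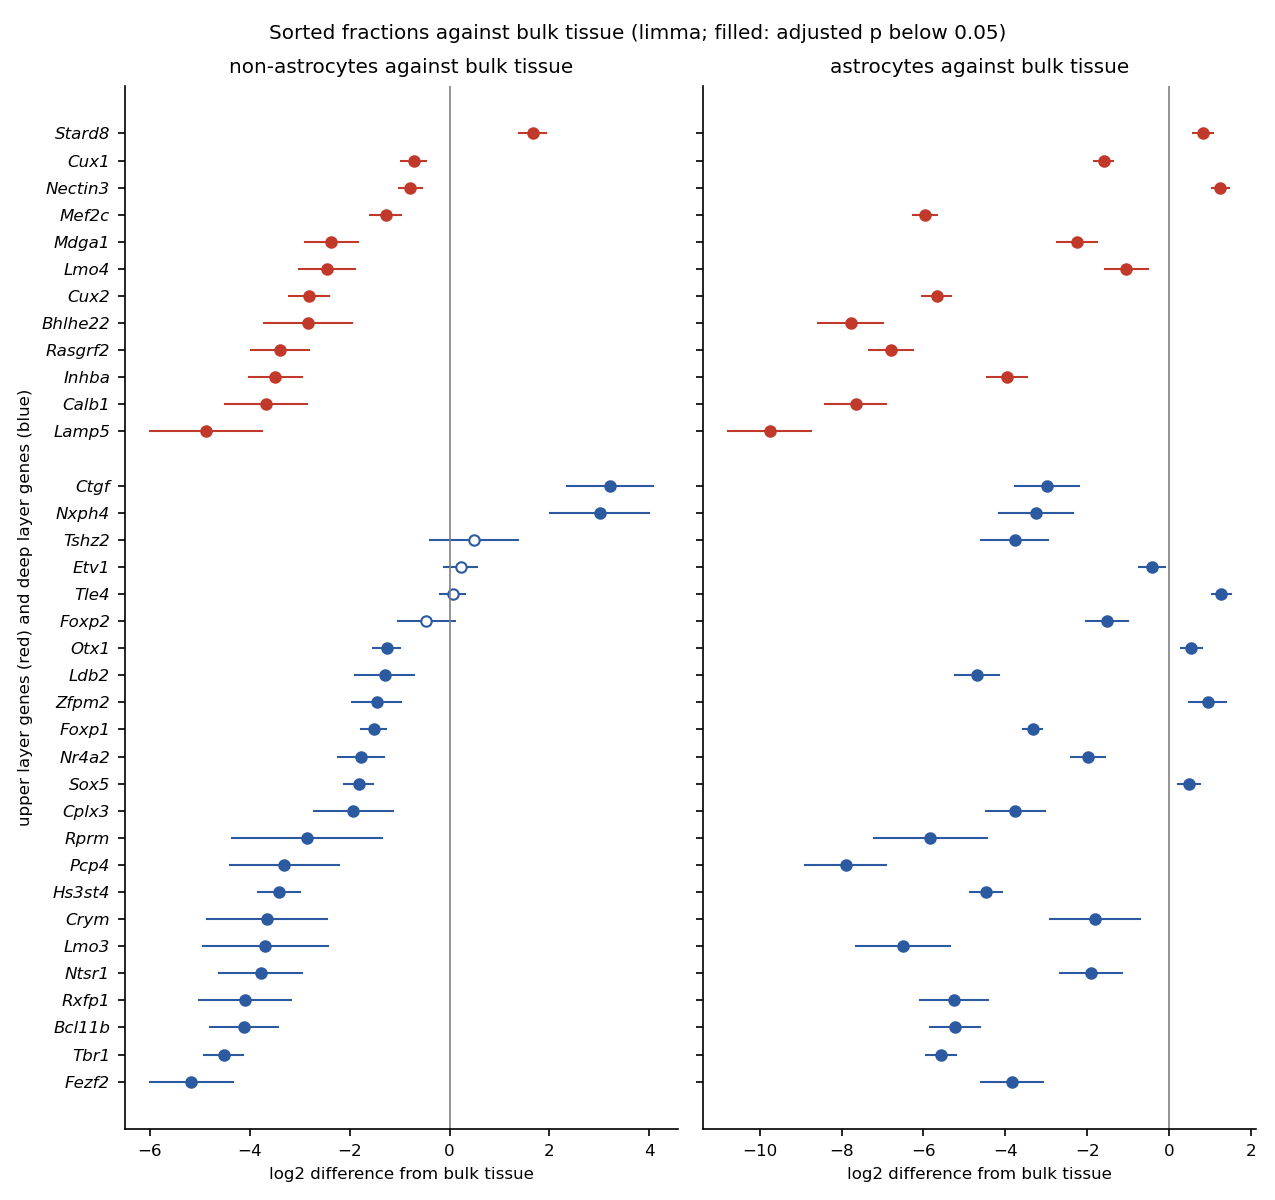
Log2 difference of non-astrocytes (left) and astrocytes (right) from bulk tissue over both layers, with 95% intervals from limma, upper layer genes in red and deep layer genes in blue, and filled points where the adjusted p is below 0.05. Stard8, Ctgf and Nxph4 are the filled points right of 0 on the left, and Nectin3, Stard8, Tle4, Zfpm2, Otx1 and Sox5 on the right.

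In the astrocytes against bulk tissue (n = 6 and 4), 10 upper layer genes fell and 2 rose, and 19 deep layer genes fell and 4 rose, where 36.1% of all genes fell and 28.8% rose. The medians were -4.82 and -3.33 against -0.10 over all genes. Lamp5 kept 0.111%, Bhlhe22 0.192%, Pcp4 0.286% and Calb1 0.358% of the bulk mean, with libraries at 0 reads for Lamp5, Bhlhe22 and Pcp4. Nxph4 was at 0 in 5 of the 6 astrocyte libraries and at 1.2 (1 read) in deep layer replicate 1. Excitatory neuron genes stood at 0.516% of bulk in the astrocytes. General neuron markers stood at 4.79%, but Map2 alone made up 87.3% of their sum there, and the 11 others stood at 0.717%.

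The 6 genes that rose encode transcription factors and cofactors, an adhesion protein and a GTPase activator. Nectin3 stood at 206% of bulk (log2 1.25, SE 0.098, adjusted p = 2.08e-08), with all 6 astrocyte libraries, 4525 to 5498, above all 4 bulk libraries. Tle4 stood at 201% (log2 1.29, adjusted p = 3.8e-08), also without overlap, as in 23.2% of all genes. Otx1, a homeobox factor gene, read 1435 to 1860 in the astrocytes against 899.5 to 1309 (log2 0.55, adjusted p = 0.000681). Sox5, with exons that overlap Sox5os1, read 3159 to 4411 against 1930 to 3353 (log2 0.49), Zfpm2 400.1 to 660.1 against 126.2 to 599.2 (log2 0.95), and Stard8 1454 to 2016 against 420.4 to 2131 (log2 0.83). These last 3 overlapped bulk tissue. By layer, the Stard8 mean was 1903 ± 163 in upper layer astrocytes (SD, n = 3) and 1932 ± 280 in upper layer bulk tissue (SD, n = 2), while the deep layer means were 1491 ± 39.2 and 465.7 ± 64.1. The Zfpm2 mean was 504.3 ± 47.4 in deep layer astrocytes (SD, n = 3) and 484.8 ± 162 in deep layer bulk tissue (SD, n = 2), while the upper layer means were 526.7 ± 130 and 149.3 ± 32.6. For both genes the astrocyte mean was thus well above bulk tissue in 1 layer only. The Sox5 libraries overlapped in the deep layers and not in the upper layers. The astrocyte marker sum stood at 543% of bulk. Its part in the levels of the 6 genes was not tested.

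Against the non-astrocytes (n = 6 and 4), 8 upper layer genes fell and 2 rose in the astrocytes, and 15 deep layer genes fell and 7 rose, where 36.8% of all genes fell and 29.6% rose. The medians were -1.88 and -1.06 against -0.08 over all genes. Zfpm2 (log2 2.40), Sox5 (log2 2.31), Nectin3 (log2 2.04), Otx1 (log2 1.81), Lmo4 (log2 1.41) and Tle4 (log2 1.22) rose with every astrocyte library above every non-astrocyte library, which held for 21.7% of all genes. Lmo4 read 1405, 1612 and 1332 in the upper layer astrocytes and 1214, 3306 and 1140 in those of the deep layers, where replicate 2 stood far above the other two. Without that library the Lmo4 difference was 1.17 (adjusted p = 1.2e-06). Crym (log2 1.85), Ntsr1 (log2 1.88) and Fezf2 (log2 1.34) rose too, from low levels and with overlap. Ntsr1 read 11.4 to 41.3 in the astrocytes and 3.1 to 11.8 in the non-astrocytes. Nxph4 and Ctgf (log2 -6.19) had the largest falls, while Nr4a2, Inhba and Mdga1 were not called.

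Levels per kilobase of exon let the genes be compared with one another. In upper layer bulk tissue Mef2c (2318 normalised reads per kb), Lamp5 (1996) and Lmo4 (1025) were the highest of the upper layer genes and Mdga1 (116) the lowest. In deep layer bulk tissue Pcp4 was highest of the deep layer genes at 3953 per kb, followed by Tbr1 (835.3) and Lmo3 (665), and Nxph4 was lowest at 4.26. The deep layer list thus spanned a wider range of levels in deep layer bulk tissue than the upper layer list did in that of the upper layers. It holds 23 genes against 12, and its low end is Nxph4 alone, at 10.6 and 3.7 normalised reads.

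Paralogues were compared on the same scale. Cux1 exceeded Cux2 in every group. The ratio of their means was lowest, 1.21, in upper layer bulk tissue, at 898.7 ± 74.6 and 741.9 ± 16.1 per kb (SD, n = 2). It was 23.1 in deep layer and 24.1 in upper layer astrocytes, at 163.6 ± 16.3 and 6.78 ± 1.12 per kb in the latter (SD, n = 3). Foxp1 was above Foxp2 throughout, at 434.4 ± 10.6 and 36.0 ± 12 per kb in deep layer bulk tissue and 486.3 ± 53.5 and 3.55 ± 0.790 in that of the upper layers (SD, n = 2). Foxp2 thus fell in the upper layers, while the Foxp1 difference did not pass the test. The ratio of Foxp1 to Foxp2 was 137.1 in upper layer bulk tissue and ran from 11.25 to 21.76 in the other groups. Foxp1 has exons that overlap Gm20696 and Gm49348. Lmo4, listed with the upper layers, was above Lmo3, listed with the deep layers, in deep layer bulk tissue as well, at 805.5 ± 57.1 against 665.0 ± 7.59 per kb (SD, n = 2). In the upper layers the values were 1025 ± 269 and 434.6 ± 31.4. Lmo3 itself read 2118 and 2346 in the upper and 3387 and 3442 in the deep layer bulk libraries. In the astrocytes Lmo4 kept 410.7 ± 41.1 per kb in the upper layers while Lmo3 was at 5.68 ± 5.66 (SD, n = 3).

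Other genes of layer identity, from lists of 11 further upper layer and 12 further deep layer genes, were read in the same fits. In bulk tissue 3 of the 11 upper layer genes rose: Pou3f2 (log2 1.07, adjusted p = 0.0218) and Rorb (log2 1.49, adjusted p = 0.0468), both transcription factor genes, and Kitl (log2 1.45, adjusted p = 0.0316), which encodes the ligand of Kit. Of all genes tested 0.159% were called higher. All 11 were apart in the upper layer direction, which held for 22.4% of all genes, with a median of 1.25. Of the 12 deep layer genes 1 fell, the HMG box factor gene Tox (log2 -1.58, limma adjusted p = 0.0194), against 0.297% of all genes. In the deep layer direction 9 were apart, against 21.3% of all genes. The other 3 had values above 0 with overlap, and the median was -1.56. Of the 9 excitatory neuron genes 0 were called by limma, with values from -1.13 to 2.08, 6 above and 3 below 0. Of them 5 were at an unadjusted p below 0.05, against 1639 of the 22575 genes tested. In the astrocytes against bulk tissue 5 of the 11 further upper layer genes rose, among them Pou3f3 (log2 1.62, adjusted p = 2.11e-07) and Pou3f2 (log2 1.19, adjusted p = 5.58e-07), and 6 fell. Of the further deep layer genes 2 rose and 10 fell there. Over all genes 28.8% rose and 36.1% fell in that comparison.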

How the data were processed

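RNA-seq was available for 14 libraries in 6 groups, named from their sample titles. The submitters' processing notes name HTSeq 0.6.1p1, TopHat2 2.0.11, DESeq2 (no version given) and CASAVA, and the GRCm38 build. The deposited table holds a signal, which is gene counts that the authors divided by 1 size factor per library (0.705 to 1.302), and 100% of values were whole reads within 1e-06. Of 32830 identifiers 32007 matched GENCODE M21. Because the values are not raw counts, limma 3.58.1 (R 4.3.3, trend and robust moderation) was fitted to log2(value + 1) of genes that reached 10 in at least 2 libraries, 22575 in all, with 6 group means in 1 model and 8 residual degrees of freedom. Log2 differences understate the change of low genes. P-values were adjusted by Benjamini-Hochberg over all genes within a comparison, and genes were called at 0.05. Fits of edgeR 4.0.16 and DESeq2 1.42.0 on the recovered reads, other pseudocounts (0.5 and 5), no filter, scaling by library total, only the groups compared, a replicate block, and leaving out each library were the alternatives. The procedure was tested on simulated data.

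The labels number the libraries. Deviations from the group means of upper and deep layer libraries of the same number and fraction correlated in all 7 pairs (0.393, 0.228 and 0.413 in the astrocytes, 0.726 in the non-astrocytes, 0.273 in bulk tissue). In a group of 2 libraries the deviations mirror each other, so both pairs of the non-astrocytes, and both of bulk tissue, must give the same value. The number was taken to pair the layers, and the blocked value stands beside a layer result where it changes the call. Between fractions of a layer the correlations of same-numbered libraries ran from -0.066 to 0.320, and the numbers were not taken to pair the fractions. That range overlaps the values between layers, so these correlations do not settle whether the fractions are paired.

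Bulk tissue values per library are given for genes called between its layers or against their list, and for paralogue pairs. Non-astrocyte values per library are given for the 4 highest and 4 lowest shares of bulk tissue in each list. Other values per library are given for some genes only. The genes and lists were chosen with earlier results of these data known. Promoter sequences are from RefSeq (GRCm38.p6). Rasgrf2 was matched by identifier, and Nectin3 is written Pvrl3 in the table.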

Additional observations from a re-analysis of the deposited data

Results flagged for a closer look

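Layer differences (upper minus deep, log2) that differed between bulk tissue and a sorted fraction, by limma's test of the difference itself at an adjusted p below 0.05, are given as the bulk difference minus that of the sorted fraction. Against the non-astrocytes the values were 1.94 for Stard8, 1.55 for Nectin3, 1.42 for Cux1, -1.61 for Tle4, -2.56 for Nr4a2 and -3.20 for Foxp2. Against the astrocytes the values were 2.17 for Cux2, 1.73 for Cux1, 1.70 for Stard8, 1.57 for Nectin3, -1.82 for Tle4, -2.94 for Nr4a2, -3.44 for Foxp2 and -6.37 for Crym. Adjusted p ran from 0.0142 to 0.0467 against the non-astrocytes and from 0.0057 to 0.0254 against the astrocytes. Both sets of tests use the same 4 bulk libraries, and excitatory neuron genes stood at 2.45% of bulk tissue in the non-astrocytes and 0.516% in the astrocytes.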

How the results depend on the processing

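No gene of the 35 changed direction and call together under any alternative, so 0 reversed. The number of calls over all 22575 genes moved with the setting too. Between layers of bulk tissue it was 36 higher and 67 lower in the main fit. It was 180 and 248 with DESeq2, 564 and 529 with only the groups compared, and 106 and 155 with the replicate block. In bulk tissue, upper layer genes called higher numbered 5, and 10 with DESeq2, 11 with only the groups compared and 3 to 4 with a library left out. Deep layer genes called lower numbered 11, and 17 with only the groups compared and 3 to 4 with a library left out. Between layers of the non-astrocytes 0 genes were called, and 6 with DESeq2, 1 with edgeR and 1 with the replicate block. Over all genes 1 was called higher there and 0 lower. The counts were 101 and 37 with DESeq2, 7 and 0 with edgeR and 21 and 12 with the block. Between layers of the astrocytes 0 were called, and 1 with the replicate block and 0 to 1 with a library left out. Over all genes 9 were called higher and 9 lower there, and 127 and 61 with the block. Deep layer genes higher in non-astrocytes than in bulk tissue numbered 2, and 4 when scaled by library total (Etv1 and Tle4 added), which moved the median of all genes from -0.04 to 0.32 and the share of calls that were higher from 49.5% to 64.1%. For astrocytes against non-astrocytes that scaling moved the median from -0.08 to -0.25 and the share from 44.6% to 35.9%, and against bulk tissue from -0.10 to 0.07, where the call of Etv1 was lost. For bulk minus astrocyte layer differences, DESeq2 called 8 upper and 8 deep layer genes in place of 4 and 4, and leaving out a library gave 0 to 4 and 0 to 5. For bulk minus non-astrocyte differences, leaving out a library gave 0 to 2 upper and 0 to 1 deep layer genes in place of 3 and 3. The deep layer count there was 6 with DESeq2 and 1 with no filter, with a pseudocount of 0.5 and with scaling by library total. Over all genes DESeq2 called 38 lower in that test, against 9 in the main fit. For the bulk minus astrocyte differences it called 90 higher and 101 lower, against 13 and 18. The cause of these changes was not tested, apart from fewer libraries in the fits that leave one out.

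With the replicate block, 6 upper layer genes (Mef2c added) and 11 deep layer genes were called in bulk tissue. Of the fraction comparisons, where the numbers were not taken to pair the samples, 1 call was lost (Rxfp1, astrocytes against non-astrocytes, limma adjusted p = 0.0651). Depth limits genes at a few reads, such as Pcp4, Lamp5, Bhlhe22 and Nxph4 in the astrocytes.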
